A study of Mus musculus with 4 samples.

Results

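The genes described are 10 enzymes of steroid hormone metabolism, found in the deposited table by matching its Ensembl identifiers to the symbols Hsd3b2, Hsd3b3, Hsd3b5, Cyp17a1, Cyp21a1, Srd5a1, Akr1c6, Hsd11b1, Hsd17b2 and Hsd17b6. They are 10 of 46603 identifiers, each symbol matched 1 identifier, and all 10 passed the filter on low counts that kept 13001 genes for testing. Total liver RNA was sequenced from 4 mice labelled male, all HuR flox/flox on the C57BL/6 J background. All were fed WDSW, a Western diet with fructose and glucose in the drinking water, for 4 weeks. Mice 3 and 4, labelled HuR hKO, had received through the tail vein an AAV8 vector that carries Cre recombinase under the thyroxine-binding globulin promoter (TBGP), which is active in hepatocytes. Mice 1 and 2, labelled control, had received AAV8-TBGP-GFP instead. The floxed alleles, the type of virus, the promoter and the diet were thus common to both groups. The paper names different suppliers for the Cre and GFP vectors. The labels give no age beyond matching between the groups, and the RNA came from whole liver, in which the other liver cells are not targeted by the vector.

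The deletion that defines the groups was not visible in the gene-level counts of these libraries. Elavl1, the gene for the RNA-binding protein HuR, had 377 and 347 counts in the control mice and 541 and 648 counts in the mice labelled HuR hKO. In CPM, counts scaled to a common library size with edgeR's TMM factors, its level was 27.1 ± 1.74 (SD, n = 2) in control and 36.1 ± 2.36 in HuR hKO mice, a log2 fold change of 0.41 with a standard error (SE) of 0.135 (adjusted p = 0.545, edgeR quasi-likelihood test). Counts over the whole gene need not show the loss of an exon, but the level goes against the label, so every direction given below is that of the libraries labelled HuR hKO. The libraries held 13032095 to 19715577 counts, the largest 1.51 times the smallest, and for a gene without counts the upper limit of the level is 0.159 to 0.226 CPM, depending on the library (3 counts, counting error only). No pair of mice agreed within sampling noise (chi-square per degree of freedom of 21.2 to 32.7), and each mouse was taken as 1 replicate.

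Steroid hormones are made from cholesterol in the adrenal cortex and the gonads, and the liver is the main site where they are reduced, oxidised and conjugated for excretion. The enzymes work at defined carbons of the steroid frame. The 3β-hydroxysteroid dehydrogenases (Hsd3b) act at carbon 3, 5α-reductase (Srd5a1) removes the double bond of the A ring, 11β-hydroxysteroid dehydrogenase type 1 (Hsd11b1) acts on glucocorticoids, the 17β-hydroxysteroid dehydrogenases and the aldo-keto reductases act mostly on androgens and estrogens, and the cytochromes P450 Cyp17a1 and Cyp21a1 hydroxylate the frame on the way to cortisol-type hormones and androgens. Several of these enzymes are known to differ between male and female liver, with Hsd3b5 a classical male-specific gene of the mouse.

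The 3 Hsd3b genes lie in a cluster on the minus strand of mouse chromosome 3 (GRCm38, GENCODE M21), Hsd3b5 at chr3:98618634-98630252, Hsd3b2 at chr3:98709255-98724543 and Hsd3b3 at chr3:98741523-98763127. Each codes for a protein from 1119 coding bases. The first 90 coding bases of each are shown because the similarity of these copies bears on how reads are assigned among them, with the positions that are not the same in all 3 genes in capitals.
Hsd3b2: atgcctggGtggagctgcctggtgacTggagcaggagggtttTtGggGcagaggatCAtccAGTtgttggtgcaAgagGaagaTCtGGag
Hsd3b3: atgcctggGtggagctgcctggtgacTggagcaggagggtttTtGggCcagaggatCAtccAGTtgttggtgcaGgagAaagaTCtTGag
Hsd3b5: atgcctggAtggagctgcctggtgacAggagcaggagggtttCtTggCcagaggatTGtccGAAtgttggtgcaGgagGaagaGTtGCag
In this stretch 16 positions differ, and 250 differ over the whole coding sequence. Hsd3b2 and Hsd3b3 were 95.1% identical and differed at 55 positions, while Hsd3b5 was 80.6% identical to Hsd3b2 and 79.9% identical to Hsd3b3. The nearest relative of Hsd3b5 was Hsd3b4, at 95.2% identity, which had counts of 2, 0, 0 and 1 in mice 1 to 4. Of the 100-base windows of the protein-coding transcripts, 8.28% of those of Hsd3b2, 17.0% of those of Hsd3b3 and 7.79% of those of Hsd3b5 also occurred in a transcript of another gene, and with 50-base windows the shares were 26.9%, 32.6% and 21.2%. Of the 100-base windows, 5.55% of those of Hsd3b2 occurred in Hsd3b3 and 11.6% of those of Hsd3b3 in Hsd3b2. Those of Hsd3b5 that were shared occurred in Gm10681, Hsd3b4 and Gm4450. The split of reads among the copies and with other genes is therefore uncertain. The level summed over the 3 copies is given beside the single ones.

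Ahead of their start sites the copies were less alike. The 120 bases before the RefSeq start (GRCm38.p6, minus strand) are shown for the 3 genes. They are sequence in which related copies with different levels could be compared. Capitals in Hsd3b3 and Hsd3b5 mark the bases that were identical in the best local alignment of that pair.
Hsd3b2, chr3:98724544-98724663: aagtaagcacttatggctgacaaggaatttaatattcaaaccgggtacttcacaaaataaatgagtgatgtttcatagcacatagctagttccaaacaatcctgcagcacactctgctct
Hsd3b3, chr3:98763129-98763248: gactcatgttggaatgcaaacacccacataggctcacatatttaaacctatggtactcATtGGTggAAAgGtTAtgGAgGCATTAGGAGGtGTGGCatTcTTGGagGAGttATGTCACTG
Hsd3b5, chr3:98645535-98645654: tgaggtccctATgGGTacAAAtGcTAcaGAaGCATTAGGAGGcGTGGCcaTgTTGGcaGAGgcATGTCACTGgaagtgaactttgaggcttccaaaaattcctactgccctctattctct
Hsd3b3 and Hsd3b5 shared 46 identical bases in an aligned block of 62, whereas the best block of Hsd3b2 held 10 identical bases of 11 with Hsd3b3 and 23 of 31 with Hsd3b5. The RefSeq start of Hsd3b5 lies 15282 bases upstream of the start of the gene in GENCODE, so this window precedes a start outside the GENCODE gene, and Hsd3b3 has a second RefSeq start that is not shown. RefSeq windows were found for 7 of the 10 genes. In the 250 bases before the start and on either strand, TTCNNNGAA, a form bound by STAT5, was in 0 of the 7 genes and in 7.01% of all 32817 windows. The letters TGTTCT, which are part of the glucocorticoid receptor element, were found in Hsd3b2 (16.1% of all windows), the palindromic glucocorticoid receptor element in 0 of the 7 (0.0091% of all windows), and TATAAA in Akr1c6 (12.4% of all windows).

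The level of the 10 genes in the control mice, divided by exon length so that genes can be compared, spanned 410.0-fold. Akr1c6 was the highest at 575 ± 36.1 CPM per kb of exon of the protein-coding transcripts (SD, n = 2), followed by Hsd11b1 at 230 ± 1.99 and Hsd3b3 at 153 ± 2.42. Hsd3b5 (111 ± 21.0), Hsd17b6 (86.5 ± 21.1) and Hsd17b2 (82.1 ± 12.8) followed, and neighbours in this run overlapped between mice. Srd5a1 (41.6 ± 0.676) and Hsd3b2 (26.3 ± 1.23) were lower and did not overlap with their neighbours above. Both cytochromes P450, best known from the adrenal cortex and gonads, were far lower, Cyp17a1 at 1.79 ± 1.26 and Cyp21a1 at 1.40 ± 0.188 CPM per kb, and could not be ordered. Place in this order depended on the transcript model for Hsd3b3, which moved from place 3 to place 6, at 42.4 CPM per kb, when the exons of a long transcript that is not protein-coding were counted in its length.

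**Figure D1:**
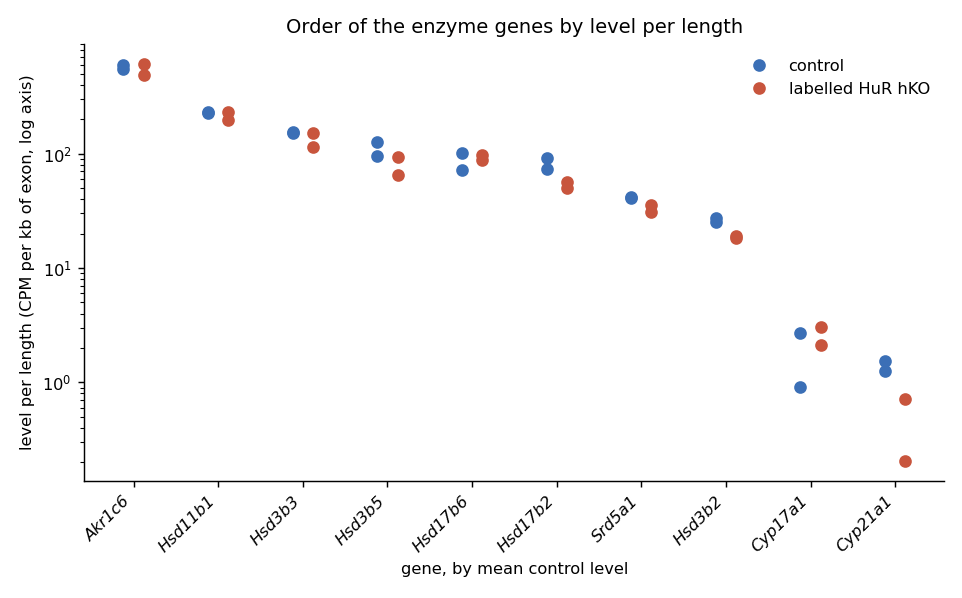
Level of each enzyme gene per kb of exon of its protein-coding transcripts (CPM per kb, log axis), 1 point per mouse, ordered by the mean of the 2 control mice. Akr1c6 lies near 575 CPM per kb in control and the cytochromes P450 Cyp17a1 and Cyp21a1 near 1.79 and 1.40.

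Between the groups, 8 of the 10 genes had a lower fitted level in the libraries labelled HuR hKO and 2 had a higher one, and none passed an adjusted p of 0.05, which 0.0231% of all genes tested did (3 genes). Hsd17b2, Hsd3b2, Cyp21a1, Hsd3b5 and Srd5a1 were lower with an unadjusted p under 0.05, that is 5 of 10 genes against 3.39% of all genes tested that were lower at this threshold (7.43% in either direction). In the same 5 genes both HuR hKO mice lay below both control mice, a pattern found in 18.8% of all genes tested (38.1% in either direction), and both lay above in 0 of the 10 genes, beside 19.3% of all genes tested. The 10 genes were chosen with earlier results of these data known, so these shares are not a test of the set. The median log2 fold change of the 10 genes was -0.26, beside 0.00 over all genes tested. It was -0.13 without mouse 3, and the 5 genes with an unadjusted p under 0.05 were 3 without mouse 1. With the Hsd3b copies, which share sequence, summed into 1 row, 4 of 8 rows were lower at this threshold and the median was -0.21. An exact permutation test (two-sided) of 2 mice against 2 has a smallest p of 0.333, so each gene was read from the edgeR fit over all genes. The fold change of at least 1.8 with an unadjusted p under 0.05 that the study used was met by 1 of the 10 genes, Cyp21a1, and by 2.12% of all genes tested (0.915% lower, 1.21% higher).

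**Figure D2:**
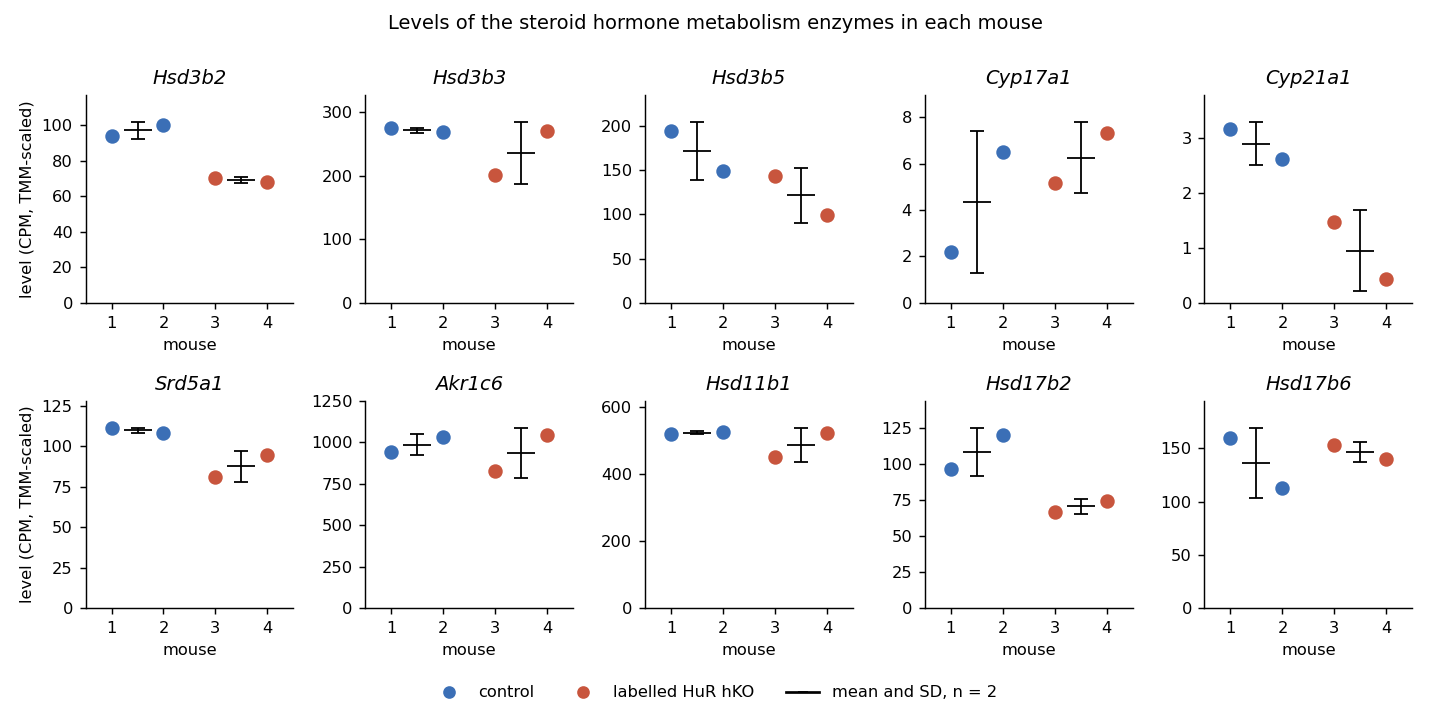
TMM-scaled level (CPM, each axis from 0) of the 10 enzyme genes in each mouse, with the mean and SD of the 2 mice of each group. Both mice labelled HuR hKO lie below both control mice for Hsd3b2, Hsd3b5, Cyp21a1, Srd5a1 and Hsd17b2, and the groups overlap for the other 5 genes.

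Hsd3b2, a 3β-hydroxysteroid dehydrogenase that oxidises the 3-hydroxyl of steroids, had 93.8 and 100.3 CPM in the control mice and 70.5 and 67.8 CPM in the HuR hKO mice. The groups did not overlap, the means were 97.1 ± 4.54 and 69.2 ± 1.93 CPM, and the log2 fold change was -0.49 (SE 0.124, unadjusted p = 0.00422, adjusted p = 0.378, edgeR). Leaving out each mouse in turn kept it between -0.55 and -0.44. Hsd3b3, the more abundant of the pair, had 274 and 268 CPM in control and 201 and 270 CPM in HuR hKO mice. Only mouse 3 was low, and the groups overlapped (log2 fold change -0.20, SE 0.165, adjusted p = 0.825, edgeR).

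Hsd3b5 stands apart from these copies in what it does, since the mouse enzyme reduces 3-ketosteroids with NADPH and so works towards their inactivation. Its level was 195 and 149 CPM in control and 144 and 99.8 CPM in HuR hKO mice. The groups did not overlap but the nearest mice, 2 and 3, differed little, the SDs within the groups were 32.5 and 31.0 CPM, and the means were 172 and 122 CPM. The log2 fold change was -0.50 (SE 0.203, unadjusted p = 0.0395, adjusted p = 0.633, edgeR), and it was -0.30 (unadjusted p = 0.186) without mouse 1 and -0.26 (unadjusted p = 0.281) without mouse 4 in the same edgeR fit.

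The sum of the 3 copies does not depend on how reads were divided among them if shared reads were counted rather than dropped, which is not stated. It still depends on reads shared with genes outside the sum, such as Hsd3b4. It was 563 and 517 CPM in control and 415 and 437 CPM in HuR hKO mice, with no overlap and means of 540.0 ± 32.2 and 426 ± 15.6 CPM (exact permutation test, two-sided, p = 0.333, the smallest possible). Entered as 1 row in the edgeR fit, the copies gave a log2 fold change of -0.34 (SE 0.140, unadjusted p = 0.0395, adjusted p = 0.634). The share of Hsd3b5 in the sum was 34.6% and 28.8% in control and 34.6% and 22.8% in HuR hKO mice, and that of Hsd3b3 was 48.7% and 51.9% against 48.4% and 61.7%, so that mouse 4 differed from the other 3 in the make-up of the sum. The other copies were Hsd3b1 and Hsd3b6, with 0 counts in all 4 mice, and Hsd3b7, which acts in bile acid synthesis and had 532 ± 11.4 CPM in control and 599 ± 45.3 CPM in HuR hKO mice (log2 fold change 0.17, SE 0.143, adjusted p = 0.835, edgeR).

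Hsd17b2 oxidises the 17-hydroxyl of estradiol and testosterone and so inactivates them, and it had the smallest unadjusted p of the 10 genes. It lies on the plus strand at chr8:117701904-117759027. Its level was 96.4 and 120 CPM in control and 66.7 and 74.3 CPM in HuR hKO mice. Both HuR hKO mice were below both control mice, with means of 108 ± 16.8 and 70.5 ± 5.40 CPM, a log2 fold change of -0.62 (SE 0.150, unadjusted p = 0.00323, adjusted p = 0.352, edgeR) and a range of -0.78 to -0.45 with each mouse left out. No 50-base window of its protein-coding transcripts occurred in another gene, so the paralog question of the Hsd3b genes does not arise. In the ranking of all genes tested by p it was at place 119, and Hsd3b2 at place 145.

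Hsd17b6, an oxidoreductase of the same family by name that acts at carbons 3 and 17 of androgens (chr10:127990936-128007611, minus strand), had overlapping groups. Its level was 160 and 113 CPM in control and 153 and 140 CPM in HuR hKO mice, so that both HuR hKO mice lay between the control mice (log2 fold change 0.10, SE 0.177, adjusted p = 0.926, edgeR). Without mouse 2 the sign turned, to -0.13. The coding sequences of Hsd17b2 and Hsd17b6 were 47.6% identical, and 8.77% of the 100-base windows of Hsd17b6 occurred also in retinol dehydrogenases, with Rdh1 and Rdh16f1 leading.

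Akr1c6 is the mouse 17β-hydroxysteroid dehydrogenase type 5, an aldo-keto reductase that forms testosterone from androstenedione (chr13:4434306-4457877, plus strand). It had 942 and 1030 CPM in control and 830 and 1045 CPM in HuR hKO mice. Mouse 3 was the lowest and mouse 4 the highest of all 4, and the log2 fold change was -0.07 (SE 0.169, adjusted p = 0.950, edgeR). Its close relative Akr1c20, 92.3% identical in coding sequence, shared 1.68% of the 50-base windows of Akr1c6 and no 100-base window, and the 2 genes summed gave 1015 and 1112 CPM in control and 898 and 1126 CPM in HuR hKO mice (exact permutation test, two-sided, p = 1.0).

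Srd5a1, steroid 5α-reductase type 1, turns testosterone into dihydrotestosterone and starts the breakdown of progesterone and corticosterone in liver (chr13:69573449-69611442, minus strand). It had 111 and 109 CPM in control and 81.1 and 94.5 CPM in HuR hKO mice. The groups did not overlap, and the means of 110 ± 1.79 and 87.8 ± 9.50 CPM gave a log2 fold change of -0.32 (SE 0.134, unadjusted p = 0.0412, adjusted p = 0.641, edgeR). This was the weakest of the 5 differences. The unadjusted p was 0.0576 with the DESeq2 Wald test, 0.0636 with edgeR's exact test and 0.0935, 0.0818 and 0.225 in the edgeR fit without mouse 1, 2 and 3. The noncoding Gm17108 on the same strand shares 476 exon bases with it and held 14.9% of its 100-base windows.

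Hsd11b1 regenerates active corticosterone from 11-dehydrocorticosterone in hepatocytes (chr1:193221634-193264075, minus strand). It had 519 and 526 CPM in control and 452 and 523 CPM in HuR hKO mice. Only mouse 3 was low, and the log2 fold change was -0.10 (SE 0.146, adjusted p = 0.908, edgeR), between -0.21 and -0.02 with each mouse left out. Hsd11b2, the enzyme for the opposite direction in kidney, had 2, 1, 0 and 0 counts and was not tested. H6pd, which supplies NADPH to Hsd11b1 in the endoplasmic reticulum, was at 337 ± 27.0 CPM in control and 358 ± 9.60 CPM in HuR hKO mice (log2 fold change 0.09, adjusted p = 0.914, edgeR).

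The cytochromes P450 were at low counts. Cyp21a1, the 21-hydroxylase of the adrenal cortex (chr17:34801348-34804561, minus strand), had 42 and 35 counts in control and 21 and 8 counts in HuR hKO mice, or 3.16 and 2.61 CPM against 1.47 and 0.425 CPM. The groups did not overlap, and the means of 2.89 ± 0.387 and 0.945 ± 0.736 CPM gave the largest fold of the 10 genes, a log2 fold change of -1.66 (SE 0.536, unadjusted p = 0.0143, adjusted p = 0.530, edgeR). Mouse 4 set much of it, since without that mouse the log2 fold change was -0.97 (unadjusted p = 0.0823), and a filter that asks for 10 counts in each library removed the gene. The pseudogene Cyp21a2-ps shared 5.87% of its 100-base windows and 23.7% of its 50-base windows, and Tnxa on the opposite strand overlaps 102 of its exon bases.

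Cyp17a1, the 17α-hydroxylase and 17,20-lyase that opens the path to androgens (chr19:46667165-46673172, minus strand), had 29 and 87 counts in control and 74 and 138 counts in HuR hKO mice. These are 2.18 and 6.50 CPM against 5.16 and 7.33 CPM, and mouse 1 was the only low library. The log2 fold change was 0.53 (SE 0.438, adjusted p = 0.829, edgeR). It was -0.06 without mouse 1 and 1.52 (unadjusted p = 0.00193, adjusted p = 0.135) without mouse 2 in the same fit, so the control mice decide its sign.

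**Figure D3:**
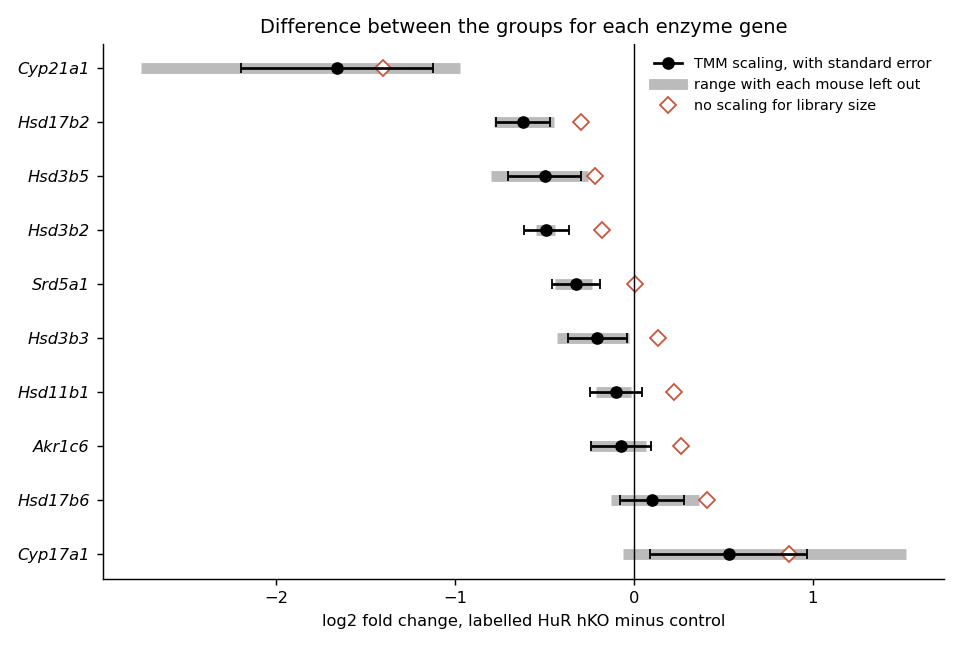
Log2 fold change (labelled HuR hKO minus control) of each enzyme gene with its standard error from the edgeR fit, the range over the 4 fits with 1 mouse left out (grey bars), and the value without any scaling for library size (open diamonds). The black points of 8 genes lie below 0, from -1.66 for Cyp21a1 to -0.07 for Akr1c6, and the unscaled values of Srd5a1, Hsd3b3, Hsd11b1 and Akr1c6 lie above 0.

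These values are relative to the other genes of a library, and fewer cells of a type cannot be told apart from less RNA per cell in bulk liver. Without scaling for library size the median of all genes moved to 0.31, that of the 10 genes to 0.07, and the distance between them was -0.24, beside -0.27 with TMM factors. The 10 hepatocyte markers, led by Alb and Apoa1, were present in every mouse at a summed 78830 to 89530 CPM and had a median log2 fold change of 0.03 with none at an unadjusted p under 0.05. Of the 10 adrenal cortex markers, 6 had 0 counts in all 4 mice, among them Cyp11b1, Cyp11b2, Hsd3b1 and Hsd3b6, and Cyp11a1 had 1 count in mouse 1. Only Star and Mrap of this list passed the filter, and its summed level was 31.2 and 35.3 CPM in control and 34.4 and 32.7 CPM in HuR hKO mice. Most of this sum was Mrap, since Star had 1.355 and 1.568 CPM in control and 1.256 and 1.221 CPM in HuR hKO mice. Akr1b7, also in the list, had 10, 0, 5 and 0 counts in mice 1 to 4. Of the gonad markers, none of the 8 passed the filter, and 4 had 0 counts in all mice, including Cyp19a1, the aromatase, and Hsd17b3, which makes testosterone in the testis. The summed level of the gonad list was 0.523 to 0.527 CPM in control and 0.584 to 0.977 CPM in HuR hKO mice.

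Other markers of liver cells moved to different extents. The median log2 fold change was 0.15 over 9 Kupffer cell and macrophage markers and 0.21 over 8 endothelial markers, with none of either at an unadjusted p under 0.05. Of 8 stellate cell markers, 7 were higher, with 2 at an unadjusted p under 0.05 (Col1a1, log2 fold change 0.63, and Col3a1, 0.59), and of 5 cholangiocyte markers tested 1 was (Spp1, 0.51), beside 4.04% of all genes tested that were higher at this threshold. The summed level of the stellate markers was 210.2 to 211 CPM in control and 230 to 282 CPM in HuR hKO mice, that of the macrophage markers 189 to 203 and 210 to 231 CPM, that of the endothelial markers 227 to 263 and 264 to 296 CPM, and that of the cholangiocyte markers 30.8 to 59.6 and 46.0 to 55.3 CPM. Their part in the levels of the enzymes was not tested. Across the lobule, the 10 pericentral genes had a median log2 fold change of 0.00, with Glul, the glutamine synthetase of the cells around the central vein, at 0.53 (unadjusted p = 0.0136, adjusted p = 0.526, edgeR), and the 10 periportal genes had a median of 0.13, with Gls2 at 0.46 and Sds at 0.44.

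Other genes of the pathway lay on both sides of the control level. Of 46 other enzymes of steroid synthesis, reduction and conjugation, 42 were found in the table, 6 of them had 0 counts in all mice, and 21 were tested. Higher values were found for 11 and lower ones for 10, the median log2 fold change was 0.07, and at an unadjusted p under 0.05 there were 3 higher and 1 lower, beside 4.04% and 3.39% of all genes tested. The lower one was Sult2a8, a hepatic sulfotransferase of the family that conjugates hydroxysteroids and bile acids, with 618 and 650 CPM in control and 394 and 524 CPM in HuR hKO mice (log2 fold change -0.47, SE 0.171, unadjusted p = 0.0257, adjusted p = 0.579, edgeR). Hsd17b7, which also serves cholesterol synthesis, was higher, at 25.1 and 22.3 CPM in control and 31.0 and 33.4 CPM in HuR hKO mice (log2 fold change 0.44, SE 0.137, adjusted p = 0.511, edgeR). The other higher ones were Hsd17b13, a protein of lipid droplets (0.38, adjusted p = 0.618, edgeR), and Akr1c12 (0.33, adjusted p = 0.632, edgeR).

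Further members of the same enzyme families had fold changes in both directions. Akr1c19 was higher in both HuR hKO mice than in both control mice, a pattern found in 19.3% of all genes tested. It had 45.8 and 53.9 CPM in control and 69.8 and 54.6 CPM in HuR hKO mice, so mice 2 and 4 differed little (log2 fold change 0.32, unadjusted p = 0.084, adjusted p = 0.698, edgeR). Akr1c14 had a log2 fold change of -0.21 (adjusted p = 0.829, edgeR). Among the 17β-hydroxysteroid dehydrogenases, Hsd17b4 (log2 fold change -0.03), Hsd17b10 (-0.09), Hsd17b11 (0.13) and Hsd17b12 (-0.07) had adjusted p-values from 0.893 to 0.981 in the edgeR fit. Srd5a3, a 5α-reductase that acts on polyprenols, had a log2 fold change of 0.07, and Akr1d1, the 5β-reductase, one of 0.20 with a spread from 109 to 192 CPM between the HuR hKO mice. Cyp7b1, which hydroxylates oxysterols and dehydroepiandrosterone and is also male-biased, was lower in both HuR hKO mice, at 173 and 144 CPM in control and 128 and 135 CPM in HuR hKO mice, without passing an unadjusted p of 0.05 (log2 fold change -0.27, unadjusted p = 0.0934, adjusted p = 0.709, edgeR).

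None of the proteins that supply these enzymes with electrons, cofactors or cholesterol had an unadjusted p under 0.05. All 11 were tested, and 8 were higher and 3 lower (median log2 fold change 0.04). Por, the reductase that passes electrons to Cyp17a1 and Cyp21a1, had 548 and 669 CPM in control and 502 and 732 CPM in HuR hKO mice (log2 fold change 0.02, adjusted p = 0.990, edgeR). Cyb5a, the cytochrome b5 that favours the lyase reaction of Cyp17a1, had 811 and 985 CPM in control and 893 and 1212 CPM in HuR hKO mice (log2 fold change 0.23, adjusted p = 0.838, edgeR).

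Among 13 receptors and carriers of steroids, 9 were tested, with 4 higher and 5 lower (median log2 fold change -0.01). At an unadjusted p under 0.05 (edgeR) there were 1 higher and 1 lower, beside 4.04% and 3.39% of all genes tested. Serpina6, the corticosteroid-binding globulin that carries glucocorticoids in plasma, was higher, at 199 and 257 CPM in control and 319 and 370.0 CPM in HuR hKO mice (log2 fold change 0.60, SE 0.167, unadjusted p = 0.00698, adjusted p = 0.441, edgeR). Nr3c1, the glucocorticoid receptor, was at 70.0 ± 4.37 CPM in control and 69.5 ± 1.32 CPM in HuR hKO mice (log2 fold change -0.01, SE 0.126, adjusted p = 0.991, edgeR). Esr1, the estrogen receptor, varied within the groups, at 5.27 and 15.6 CPM in control and 8.09 and 15.5 CPM in HuR hKO mice (log2 fold change 0.19, adjusted p = 0.956, edgeR).

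Genes that steroid signalling is known to regulate were read in the same way. Like every list here, this list and the sex-biased lists below were chosen with earlier results of these data known. Their shares are therefore not a test of the sets. All 16 glucocorticoid target genes were tested, and 5 were higher at an unadjusted p under 0.05 (beside 4.04% of all genes tested) and 0 lower (median log2 fold change 0.21). Those named by the rule were Lcn2 (2.13, adjusted p = 0.103, edgeR), an acute phase protein, Cdkn1a (1.08, adjusted p = 0.207, edgeR), a cell cycle inhibitor and p53 target, Sgk1 (0.51, adjusted p = 0.530, edgeR), a kinase, and Sds (0.44, adjusted p = 0.574, edgeR), which degrades serine. Lcn2 and Cdkn1a answer to other signals too.

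Genes with a known sex bias in mouse liver were read likewise. Of 21 male-biased genes 20 were tested, and 15 were lower and 5 higher (median log2 fold change -0.36). At an unadjusted p under 0.05 there were 6 lower and 1 higher, beside 3.39% and 4.04% of all genes tested. Ugt2b38, a glucuronosyltransferase, was lower by a log2 fold change of -1.21 (adjusted p = 0.223, edgeR), C6, a complement protein, by -0.99 (adjusted p = 0.200, edgeR), Susd4 by -0.67 and the organic anion transporter Slco1a1 by -0.66. The higher one was Mup21, a major urinary protein from a family of near-identical copies, at 0.86 (adjusted p = 0.414, edgeR), which ran against the direction of the list.

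Of 25 female-biased genes 14 were tested, and 10 were higher and 4 lower (median log2 fold change 0.77). The filter on low counts also kept genes that reached it in either group alone. Genes near the floor in control, such as Cyp2a4 and Cyp2b13 (9 and 14 counts in control), could thus be tested through the HuR hKO libraries. The counts and the median of this list may depend on that filter. At an unadjusted p under 0.05 there were 8 higher and 1 lower, beside 4.04% and 3.39% of all genes tested. Cyp2a4, a testosterone 15α-hydroxylase of female liver with near-identical relatives, had 11 and 7 counts in control and 403 and 200 counts in HuR hKO mice (log2 fold change 4.81, SE 0.567, adjusted p = 0.0636, edgeR). Cyp2b13 (2.40, adjusted p = 0.103, edgeR), Slc22a27 (1.75, adjusted p = 0.175, edgeR), Cyp2b9 (1.52, adjusted p = 0.137, edgeR) and Atp6v0d2 (1.43, adjusted p = 0.613, edgeR) followed, and none had an adjusted p under 0.05. All mice carried the label male, while the paper states that its animal studies used both sexes.

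**Figure D4:**
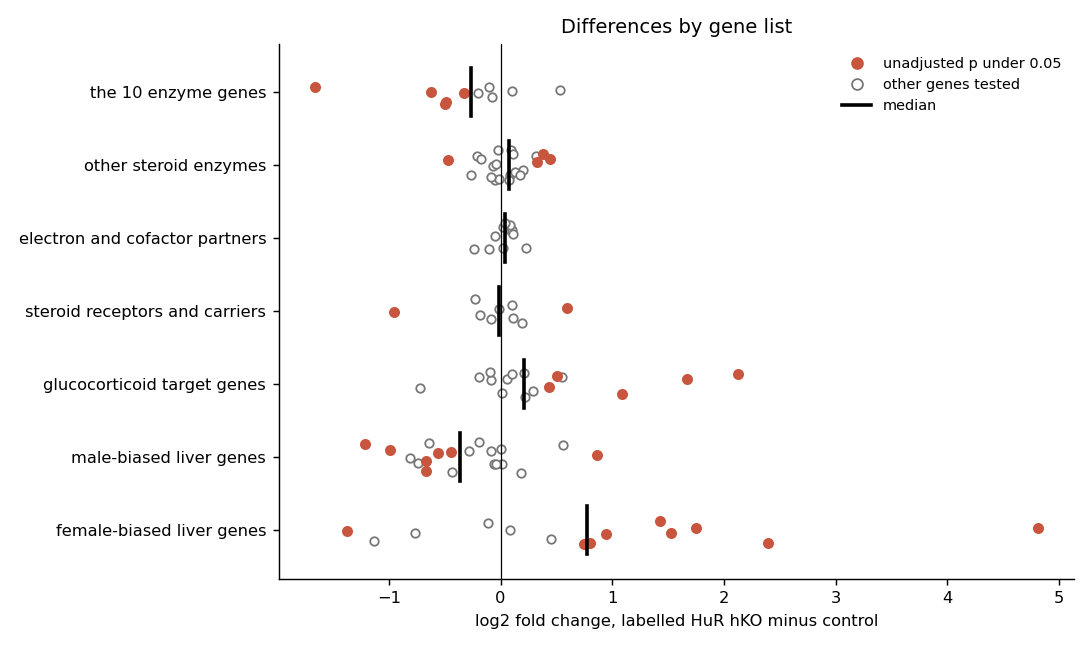
Log2 fold change (labelled HuR hKO minus control) of each gene tested in the 10 enzyme genes and 6 related lists, with the list median as a black bar and genes with an unadjusted p under 0.05 filled. Vertical position within a list carries no value, and the medians run from -0.36 for male-biased to 0.77 for female-biased liver genes, with -0.26 for the 10 enzyme genes.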

How the data were processed

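Liver RNA from 4 mice (2 control, 2 HuR hKO) was analysed. The authors counted reads on 46603 Ensembl identifiers and deposited counts as whole numbers without normalization. The submitters' processing notes name RSEM and GRCm38 without role or version, and the aligner and the use of strand are not given in the sources used here, so reads of overlapping genes on opposite strands may be mixed. Columns were matched to mice by name, with 0 unmatched. Symbols were found for 46005 identifiers, and 3 listed symbols were read under their current names (H6pd, Trf and H2-Ke6).

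Counts were compared with edgeR 4.0.16 (R 4.3.3, limma 3.58.1), with TMM factors (0.957 to 1.04), filterByExpr (minimum of 10 counts, total of 15), the quasi-likelihood F test and Benjamini-Hochberg adjustment over 13001 genes. The SE is the absolute log2 fold change divided by the square root of F. The script was tested on simulated counts. Identity and windows were computed from GENCODE M21 (biopython 1.88) and promoters from RefSeq, and tables and figures were made in python (3.11.15) using matplotlib 3.10.9, pandas 2.3.3 and numpy 2.4.6. Lengths for the levels per kb are the merged exons of protein-coding transcripts.

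The enzymes and all lists were chosen with earlier results of these data known. The genes named were the 10 enzymes, Elavl1, preset partners (Nr3c1, Serpina6, H6pd, Por, Cyb5a and the other Hsd3b copies) and, from each list, up to 5 genes with the largest change among those with an unadjusted p under 0.05 and groups that do not overlap. Some genes that this rule covers are not reported here. Further members of the enzyme and receptor lists (Akr1c14, Akr1c19, Akr1c20, Hsd11b2, Hsd17b4, Hsd17b10, Hsd17b11, Hsd17b12, Srd5a3, Akr1d1, Cyp7b1 and Esr1) were named after their values were seen. Alternatives were DESeq2 size factors, upper quartile factors, no scaling, no filter, 10 counts in each library, DESeq2 1.42.0 with its Wald test, edgeR's exact and robust tests, limma-voom, and leaving out each mouse. The sum of the Hsd3b copies in 1 row and the second length were chosen after seeing the data. Nothing says more of the replicates than that they are separate mice. The p-values set each difference against the spread between these mice, estimated in part from all genes tested.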

Additional observations from a re-analysis of the deposited data

How the results depend on the processing

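Under the 13 alternatives the 10 enzymes gave 129 log2 fold changes, of which 108 kept their direction and side of an unadjusted p of 0.05. None of the enzymes had an adjusted p under 0.05 in any setting (lowest 0.0539, Hsd17b2 without a filter on low counts), while the count over all genes ran from 3 (edgeR, as reported) to 85 with the DESeq2 Wald test, 120 with edgeR's exact test, 161 without a filter, 155 without scaling, 8 with the robust test, 2 with limma-voom and 2 with at least 10 counts in every sample. Without scaling for library size the enzymes with an unadjusted p under 0.05 were 2 instead of 5, those past a fold change of 1.8 were 2 instead of 1, the median was 0.071 and the log2 fold changes of Hsd3b3 (0.14), Srd5a1 (0.0049), Hsd11b1 (0.23) and Akr1c6 (0.26) turned positive, since unequal library sizes then enter the fold changes. With at least 10 counts in every sample, 0 enzymes passed the fold change of 1.8, because Cyp21a1 was no longer tested. Leaving out 1 mouse at a time gave 3 to 5 enzymes with an unadjusted p under 0.05 (3 without mouse 1), 0 to 2 past the fold change of 1.8 (0 without mouse 4, 2 without mouse 2), medians from -0.34 to -0.13 (-0.13 without mouse 3), 2 to 4 other steroid enzymes (2 without mouse 1) and 0 to 73 of all genes with an adjusted p under 0.05 (0 without mouse 3, 43 without mouse 1, 73 without mouse 2, 7 without mouse 4). The sign turned for Cyp17a1 without mouse 1 (-0.061, up to 1.524 without mouse 2), Hsd17b6 without mouse 2 (-0.126, up to 0.363) and Akr1c6 without mouse 3 (0.067, down to -0.247). With 1 mouse left in a group, that mouse is assumed to vary like the other group. No paired analysis was possible because the groups share no replicate number (mice 1 and 2 against mice 3 and 4). With 2 mice a group the precision is limited by their number, and for Cyp21a1 also by counts as low as 8.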
